A study of Mus musculus with 10 samples.

Results

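Plin4, Fabp4, Fabp5 and Cd36 are 4 genes of fatty acid handling that were followed here in preadipocytes that had not yet been induced to become fat cells. The genes were found as the probe sets annotated to one of these symbols alone, with the brightest probe set kept where a gene had several, and with no filter on intensity. They are 4 of the 19937 genes measured this way. The set was chosen by measured values, since the earlier High and Low levels of these genes on the same arrays were known when it was put together. The differences between the classes are therefore given as a description and carry no test.

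The cells were 3T3-L1, a mouse embryonic fibroblast line that turns into adipocytes when given insulin, dexamethasone and IBMX. Clones grown from single colonies and kept below confluence had been classed by the triglyceride they stored after that cocktail, and each class was represented by 5 lines with 1 array each. The Low lines, numbered here from 1 to 5, were 1E7, 2D7, 2F1, 4D11 and then 4H4. The High lines, numbered the same way, were 3F4, 4D2, 4E3, 5C4 and then 5D4. All 10 lines were untreated, proliferating in DMEM with 10% serum, and sampled before differentiation, so the class of a line is its later capacity and not its state when sampled. A line is 1 clone, and a difference between classes is a difference between sets of clones that share a parent line.

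Fatty acids enter a fat cell across the plasma membrane, travel through the cytosol bound to small carrier proteins and are stored as triglyceride in coated droplets. CD36 is the surface receptor that takes up long-chain fatty acids. FABP4 and FABP5 are cytosolic carriers of the same protein family, FABP4 being the classical carrier of adipocytes and FABP5 the epidermal form that is also found in adipocytes and many other cells. PLIN4 belongs to the perilipins and coats nascent lipid droplets. Fabp4, Cd36 and Plin4 are known targets of PPARG, the nuclear receptor that drives adipocyte differentiation.

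RefSeq promoter sequence (assembly GRCm38.p6) was matched for Plin4 and Cd36, 2 of the 4 genes, and is shown for those 2 because the reference table used here held no entry for the other two. Each run is the 250 bases before an annotated transcript start, read 5′ to 3′ on the gene's minus strand, at chr17:56109783-56110032 for Plin4 and chr5:17835897-17836146 for Cd36. Capitals mark matches on either strand to the TATA box core TATAA, to the CCAAT box, to the GC box GGGCGG, and to the element AGGTCA that many nuclear receptors bind.
Plin4: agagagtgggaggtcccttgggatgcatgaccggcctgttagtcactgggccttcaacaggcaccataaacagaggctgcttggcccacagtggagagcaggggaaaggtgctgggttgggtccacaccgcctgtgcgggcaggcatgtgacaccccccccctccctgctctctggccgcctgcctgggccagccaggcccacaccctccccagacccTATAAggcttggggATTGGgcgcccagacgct
Cd36: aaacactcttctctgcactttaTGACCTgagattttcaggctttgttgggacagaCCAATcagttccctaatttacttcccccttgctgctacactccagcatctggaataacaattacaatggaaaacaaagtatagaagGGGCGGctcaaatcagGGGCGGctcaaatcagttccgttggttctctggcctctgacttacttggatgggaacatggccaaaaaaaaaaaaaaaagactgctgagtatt

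The Cd36 window lies inside the annotated gene span of 17781690 to 17888959 on chromosome 5. The Plin4 window reaches past the outer end of its gene span of 56100587 to 56109948 on chromosome 17. The Plin4 window held 1 TATAA, at positions -32 to -28 from the start, and 1 CCAAT on the opposite strand at -18 to -14. Among 32851 RefSeq promoter windows of the same length, 22.8% held TATAA and 33.9% held CCAAT on either strand. The Cd36 window held CCAAT at -195 to -191, AGGTCA on the opposite strand at -228 to -223 and GGGCGG at -109 to -104 and again at -93 to -88. GGGCGG occurred in 32.7% of all windows and AGGTCA in 14.02%. Both GGGCGG matches lie in a stretch of 16 bases, aggggcggctcaaatc, that occurs at -111 and again directly after it at -95. A direct repeat of the nuclear receptor element with 1 base between its copies (AGGTCANAGGTCA), the form bound by PPARG with RXR, was found in neither window and in 0.0335% of all windows. The GC content was 65.2% in the Plin4 window and 43.2% in the Cd36 window, against a median of 52.4% over all windows.

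Values are log2 intensities after RMA, so a difference of 1 is a doubling on the RMA scale. The array medians ran from 7.74 to 7.84 and the 25th percentiles, used as the limit of dim signal, from 6.38 to 6.47. A gene entered the fit across all genes (limma) when 5 or more of the 10 arrays showed it above that limit. Plin4, Fabp4 and Fabp5 passed this limit on all 10 arrays, while Cd36 exceeded it on 2 arrays, both of High lines, and did not enter the fit. Of all 16339 genes in the fit, 1 passed at a limma adjusted p under 0.05, or 0.00612%, and 19 passed without High replicate 5. The members are read below as values only. High replicate 4 stood apart from the other lines, with an array median of 7.84 against 7.74 to 7.79 and a mean correlation with the other arrays of 0.987 against 0.991 to 0.993. Without it the members' differences between the classes, described next, were 0.83 for Plin4, 1.20 for Fabp4, 1.19 for Cd36 and -0.22 for Fabp5. The arrays measured bulk RNA, in which a few strongly expressing cells cannot be told apart from a low level in all cells.

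Plin4, the droplet coat gene, measured 8.96, 8.60, 9.18, 8.40 and 9.04 in Low replicates 1 to 5 and 9.89, 9.55, 9.78, 9.37 and 9.46 in High replicates 1 to 5. Every High line lay above every Low line, and the smallest High value exceeded the largest Low value by 0.20. The Low and High means were 8.83 ± 0.33 and 9.61 ± 0.22 (SD, n = 5 each), a difference of 0.77 or 1.71-fold. Leaving out 1 line at a time gave differences from 0.67 to 0.86.

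Fabp4, the adipocyte fatty acid carrier, measured 8.83, 8.17, 8.68, 8.13 and 9.19 in Low replicates 1 to 5 and 10.06, 10.06, 10.45, 9.89 and 8.63 in High replicates 1 to 5. Of the High lines, 4 lay above all Low lines, and High replicate 5 ranked 8th of the 10 lines, below Low replicates 5, 1 and 3. The means were 8.60 ± 0.45 and 9.82 ± 0.69 (SD, n = 5 each), a difference of 1.22 or 2.33-fold. Without High replicate 5 the difference was 1.51.

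Cd36, the fatty acid receptor, measured 5.24, 5.37, 5.18, 5.11 and 5.19 in Low replicates 1 to 5 and 6.78, 5.78, 7.65, 6.07 and 5.39 in High replicates 1 to 5. The Low lines lay within 0.26 of one another, all of them in the dim range, and the High lines were spread over 2.26. High replicates 3 and 1 lay above the dim limit, and High replicate 5 exceeded the highest Low line by 0.03. The means were 5.22 ± 0.10 and 6.34 ± 0.89 (SD, n = 5 each), a difference of 1.12. No fold is given, because all 5 Low and 3 of the 5 High values lay below the dim limit, where array signal can understate differences and spread. Leaving out High replicate 3 or High replicate 5 gave differences of 0.79 and 1.36.

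Fabp5, the epidermal carrier, went the other way by a small amount. It measured 11.94, 12.03, 11.94, 11.82 and 11.68 in Low replicates 1 to 5 and 11.86, 11.47, 11.78, 11.90 and 11.55 in High replicates 1 to 5. The classes overlapped, with 3 High lines inside the Low range and High replicates 2 and 5 below it. The means were 11.88 ± 0.13 and 11.71 ± 0.19 (SD, n = 5 each), a difference of -0.17, and the sign held with each line left out (-0.22 to -0.11).

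Fabp5 was the member with 2 probe sets. The other one measured 11.59, 11.73, 11.58, 11.47 and 11.31 in Low replicates 1 to 5 and 11.50, 11.27, 11.66, 11.22 and 11.31 in High replicates 1 to 5. Its difference was -0.15, and the deviations of both probe sets from their class means correlated at r = 0.57 over the 10 lines (a description of 1 gene read by different probes, with no test). The 6 named probe sets with the closest identifiers to the brighter one belong to genes on chromosome 9, and those closest to the other one belong to genes on chromosome 3, where Fabp5 lies. Whether the brighter probe set reads copies of the Fabp5 sequence outside the gene was not tested.

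**Figure D1:**
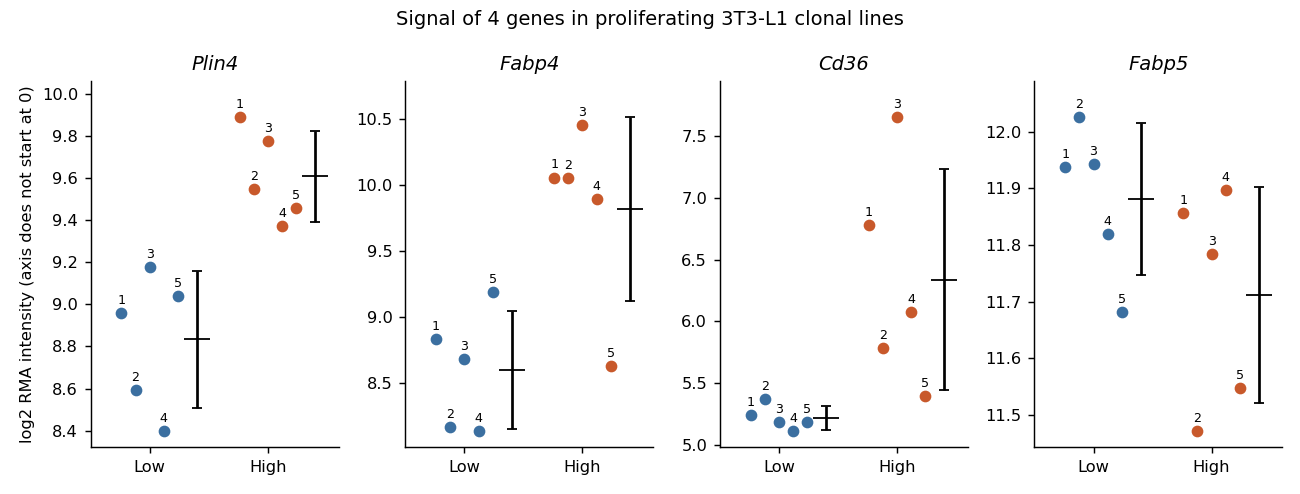
Signal of Plin4, Fabp4, Cd36 and Fabp5 in the 5 Low and 5 High lines, as log2 RMA intensity on axes that do not start at 0. Each point is 1 line with its replicate number, and the black bars are the class mean ± SD; the classes do not overlap for Plin4 and Cd36, High replicate 5 falls among the Low lines for Fabp4, and Fabp5 overlaps between the classes.

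In all, 2 of the 4 members, Plin4 and Cd36, had every High line above every Low line, for Cd36 largely by values below the dim limit. The same separation was found for 96 of 19937 genes without an intensity filter, or 0.482%. The members were picked with these values in view, so nothing is read from the comparison of these shares.

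The order of the lines was partly shared among the members. High replicates 1 and 3 were the highest lines for Plin4, Fabp4 and Cd36, and Low replicate 4 was the lowest line for Plin4 and Fabp4. No order is read among the Low lines for Cd36, which were all dim. High replicate 5 was the High line with the lowest Fabp4, but its Plin4 value of 9.46 lay above that of High replicate 4. For Fabp5 the highest line was Low replicate 2 and the lowest was High replicate 2. With 1 array per line, neighbouring places in these orders have no error of their own.

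Pparg, the nuclear receptor gene, measured 11.45, 11.13, 11.51, 11.26 and 11.67 in Low replicates 1 to 5 and 11.995, 12.22, 12.17, 11.97 and 11.75 in High replicates 1 to 5. High replicate 5 was again the lowest High line. Angptl4, a secreted inhibitor of lipoprotein lipase and another PPARG target, ran from 9.33 to 9.68 in Low and from 10.23 to 10.47 in High lines, and High replicate 5, at 10.30, stood among the other High lines for this gene.

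The next question was whether the members moved together from line to line once the class difference was set aside. For each gene the class mean was subtracted, which removes the difference between the classes. The deviations of 10 lines were then correlated for all 10 pairs of the 4 members and Pparg. The p-values are two-sided, from all 14400 exact permutations of lines within their class, and are adjusted over the 10 pairs by Benjamini and Hochberg's method. The genes and this test were chosen with earlier results of the same arrays known. Removal of the class means does not make the p-values independent of that choice.

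Fabp4 and Pparg were the 1 pair past the threshold. Lines with more Pparg than their class had more Fabp4, with a Pearson r of 0.87 (exact permutation p = 0.00222, adjusted p = 0.0222) and a Spearman rho of 0.85 (exact permutation p = 0.00424, adjusted p = 0.0424). The correlation was 0.94 among the 5 Low lines and 0.88 among the 5 High lines. In the High class, replicate 5 was lowest for both genes, while replicates 1 and 4 went against the relation. Their deviations were -0.03 and -0.05 for Pparg and 0.24 and 0.08 for Fabp4. The value of the High class without replicate 5 was not computed. Without High replicates 3 and 1, the lines farthest from the median of Fabp4 over both classes, r was 0.90. This choice of lines holds the class difference. It kept High replicate 5, whose Fabp4 deviation from its class mean, -1.19, was the largest in size. The value of 0.90 therefore cannot show how far r depends on High replicate 5. With 1 line left out at a time r ran from 0.85 to 0.89, and the adjusted p exceeded 0.05 without Low replicate 5 (0.111), High replicate 3 (0.0556), High replicate 4 (0.0556) or High replicate 5 (0.153). Without any other single line it stayed between 0.0243 and 0.0486 by the exact permutation test. Every such run holds 9 lines and fewer permutations, so this alone does not set the named lines apart.

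**Figure D2:**
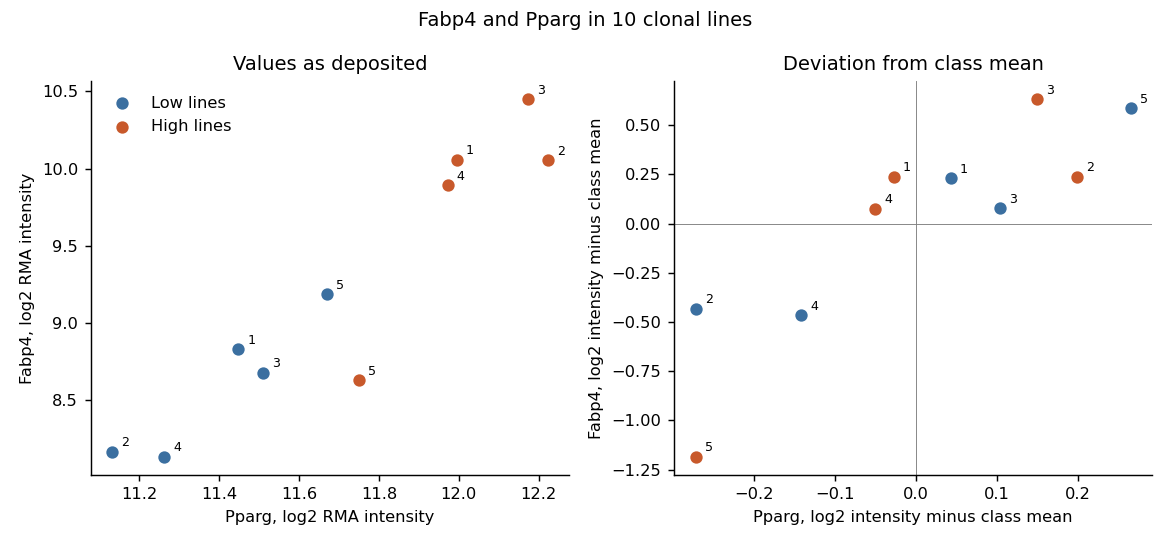
Fabp4 against Pparg in 10 lines, as log2 RMA intensity (left) and as deviation from the class mean (right), with replicate numbers beside the points. On the right the points run from High replicate 5 at the lower left to Low replicate 5 and High replicate 3 at the upper right, with r = 0.87.

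Plin4 had smaller coefficients with Pparg and Fabp4, and both missed the threshold. Its within-class r was 0.64 with Pparg (exact permutation p = 0.0753, adjusted p = 0.251) and 0.62 with Fabp4 (exact permutation p = 0.0501, adjusted p = 0.251), and the Spearman rho was 0.64 (exact permutation p = 0.0729) and 0.68 (exact permutation p = 0.0291). Without Low replicates 4 and 2, the lines farthest from the median of Plin4 over both classes, r was 0.33 with Pparg (exact permutation p = 0.528) and 0.45 with Fabp4 (exact permutation p = 0.446).

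Of the 10 Cd36 values, 8 lay below the dim limit, so much of its spread within the Low class is near background. Cd36 had a within-class r of 0.63 with Fabp4 (exact permutation p = 0.152, rho = 0.60), 0.41 with Plin4 (exact permutation p = 0.159, rho = 0.38) and 0.30 with Pparg (exact permutation p = 0.439, rho = 0.22). The lowest of their adjusted p was 0.317 by the exact permutation test. Without High replicate 5 the r of Cd36 with Pparg was -0.02 and with Fabp4 0.33.

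No relation between the carriers Fabp5 and Fabp4 was detected. The within-class r of the carriers was 0.13 (exact permutation p = 0.815, rho = -0.01), and it ran from -0.34 to 0.40 with 1 line left out. Fabp5 had an r of 0.08 with Plin4 (exact permutation p = 0.818, rho = 0.01), -0.30 with Pparg (exact permutation p = 0.405, rho = -0.36) and 0.52 with Cd36 (exact permutation p = 0.245, rho = 0.49). Without High replicates 2 and 5, the lines farthest from the median of Fabp5 over both classes, the r with Cd36 was -0.18. With the mean of both Fabp5 probe sets it was 0.71 (exact permutation, adjusted p = 0.0458) and with the other probe set alone 0.73 (adjusted p = 0.0948 by the exact permutation test). These values rest on the same dim Cd36 signal, and no relation is read from them.

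Over all 10 lines, class difference included, the pooled r was 0.86 for Plin4 with Fabp4, 0.75 for Plin4 with Cd36, 0.83 for Fabp4 with Cd36, and 0.90, 0.94 and 0.72 for these genes with Pparg. The pooled r of Fabp5 was -0.38 with Plin4, -0.30 with Fabp4, -0.03 with Cd36 and -0.56 with Pparg. These pooled values hold the class difference that chose the members and are a description without a test.

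The genes most like each member over the 10 lines were ranked by Pearson r of the log2 values, among the tested genes and without predicted and non-coding transcripts. For Plin4 they were Mgst1 (r = 0.95), a microsomal glutathione transferase gene, Mylip (0.95), which encodes the ubiquitin ligase of the LDL receptor, the Ras-like gene Rerg (0.95), Olr1 (0.93), which encodes a receptor for oxidised LDL, and the arginine methyltransferase gene Prmt2 (0.93). For Fabp4 they were Olr1 (0.96), Pparg (0.94), the imprinted gene Mest (0.94), the zinc finger gene Zfp467 (0.94) and Coq2 (0.93), an enzyme gene of coenzyme Q synthesis. For Cd36 they were Serpinb9e (0.89), Acacb (0.88), the mitochondrial acetyl-CoA carboxylase gene, Mest (0.88), Zfp467 (0.87) and Hdgfl2 (0.87). For Fabp5 they were the ubiquitin ligase gene Itch (0.92), Golm2 (0.91), Trappc2 (0.89), the lysosomal mannosidase gene Manba (0.88) and Tecr (0.88), a reductase gene of fatty acid elongation. Cd36 exceeded the dim limit on 2 arrays, both of High lines, so no relation is read from its ranking.

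These coefficients hold the class difference that chose the members, so genes shared between the rankings of Plin4, Fabp4 and Cd36 are no separate finding. The ranked genes were also picked for a high r on the same lines. Their r after removal of the class means is therefore a description and no separate finding either. Olr1 was ranked for both Plin4 and Fabp4, with r of 0.80 and 0.90 once the class means were removed. It ran from 7.28 to 7.85 in Low lines and from 7.77 to 8.62 in High lines, with High replicate 5 the High line inside the Low range. Mest and Zfp467 were ranked for both Fabp4 and Cd36, with r of 0.85 and 0.74 for Mest and of 0.89 and 0.77 for Zfp467 after removal of the class means. The coefficients with Cd36 rest on its mostly dim signal. Mest ran from 6.56 to 6.90 in Low and from 6.62 to 10.93 in High lines, and High replicate 5 held the lowest of its High values.

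The class difference of the members was then set beside other genes of the same pathway from lists of known biology. Because the members were picked with their differences known, how far they stand from the list genes is a description only. Over all tested genes the median difference was 0.021 and 58.0% of differences were positive, with 517 genes (3.16%) higher and 782 (4.79%) lower in High lines at an unadjusted limma p under 0.05. The share of positive differences was 45.7% after centring of the arrays on the median of all probe sets, 65.6% after centring on the median of the tested genes and 52.1% without High replicate 4. The split of the p-values depends on scaling too, being 298 (1.82%) higher to 1188 (7.27%) lower after the first centring, and 640 (3.92%) to 510 (3.12%) after the second. Counts below leave the 4 members out.

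Other lipid droplet genes had differences from -0.25 to 0.29. Of 26 tested lipid droplet proteins and lipases, 0 passed the limma adjustment, 2 were higher and 1 was lower at an unadjusted limma p under 0.05, and the median difference was 0.053. The higher and lower counts were 0 and 1 after the first centring, 3 and 1 after the second, and 3 and 0 without High replicate 4. Among the perilipins, Plin2, the ubiquitous droplet coat, had Low and High means of 11.67 ± 0.08 and 11.82 ± 0.18, Plin3 10.74 ± 0.08 and 10.998 ± 0.22, Plin1, the coat of mature adipocyte droplets, 7.98 ± 0.08 and 8.07 ± 0.20, and Plin5 7.69 ± 0.12 and 7.74 ± 0.21 (SD, n = 5 each). Their differences of 0.15, 0.26, 0.09 and 0.05 compare with 0.77 for Plin4. The other list genes with the smallest p were the droplet hydrolase gene Ldah (-0.25), Abhd5 (0.17), the coactivator of adipose triglyceride lipase, and the droplet dehydrogenase gene Hsd17b11 (0.29).

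Other fatty acid binding proteins had differences from -0.08 to 0.33. Of 7 tested members of the wider family, 0 passed in limma and 0 had an unadjusted limma p under 0.05. Fabp3, the heart form, had Low and High means of 10.45 ± 0.35 and 10.78 ± 0.29 (SD, n = 5 each), a difference of 0.33. Crabp2 and Rbp2, carriers of retinoids, differed by 0.08 and 0.07. Fabp1, Fabp2, Fabp6, Fabp9 and Fabp12 were dim and were not tested.

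Genes of fatty acid uptake and activation other than Cd36 had a median difference of -0.003 over 20 tested genes. Of these, 0 passed in limma, and 1 was higher and 1 lower at an unadjusted limma p under 0.05. The counts were 0 and 2 after the first centring, 1 and 0 after the second, and 1 and 2 without High replicate 4. The 2 genes were Zdhhc4 (0.22), a palmitoyltransferase gene, and Acsl4 (-0.24), an acyl-CoA synthetase gene. Got2, which encodes an aspartate transaminase also described as a fatty acid binding protein of the plasma membrane, differed by -0.10, the transporter family gene Slc27a5 by 0.12, and Lpl, the lipase that releases fatty acids from lipoproteins, by 0.21.

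Of the 21 known PPARG targets tested outside the members, 1 passed in limma. This was Angptl4, higher by 0.88 in High lines (limma adjusted p = 0.00118), a call that was lost with a block for the first digit of the clone names, where 0 genes passed. Of the 21, 17 had positive and 4 negative differences, the median was 0.095, and 5 were higher and 0 lower at an unadjusted limma p under 0.05. Over all tested genes 58.0% of differences were positive, and 3.16% were higher and 4.79% lower at that p. After the first centring 15 were positive, beside 45.7% of all tested genes, and 3 were higher at that p. After the second centring 17 were positive, beside 65.6% of all tested genes, and 5 were higher at that p. Without High replicate 4, 16 were positive and 3 were higher at that p. Named after their values were seen, the other 4 of the 5 were Olr1 (0.73), Cpt1a (0.36), which encodes the gatekeeper of mitochondrial fatty acid oxidation, the nuclear receptor gene Nr1h3 (0.22) and the glycerol channel gene Aqp7 (0.16). Adipoq, the adipocyte hormone gene, lay below the intensity limit with Low and High means of 5.92 ± 0.08 and 5.81 ± 0.15 (SD, n = 5 each).

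Of 21 tested genes of the PPAR and C/EBP machinery, 0 passed in limma, and 3 were higher and 1 lower at an unadjusted limma p under 0.05. The balance depends on scaling, with 2 higher and 3 lower after the first centring, 3 and 1 after the second, and 2 and 0 without High replicate 4. The 4 genes were Pparg (0.62), its partner Rxra (0.29), the coactivator gene Ppargc1a (0.78) and the coactivator gene Ncoa1 (-0.29).

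**Figure D3:**
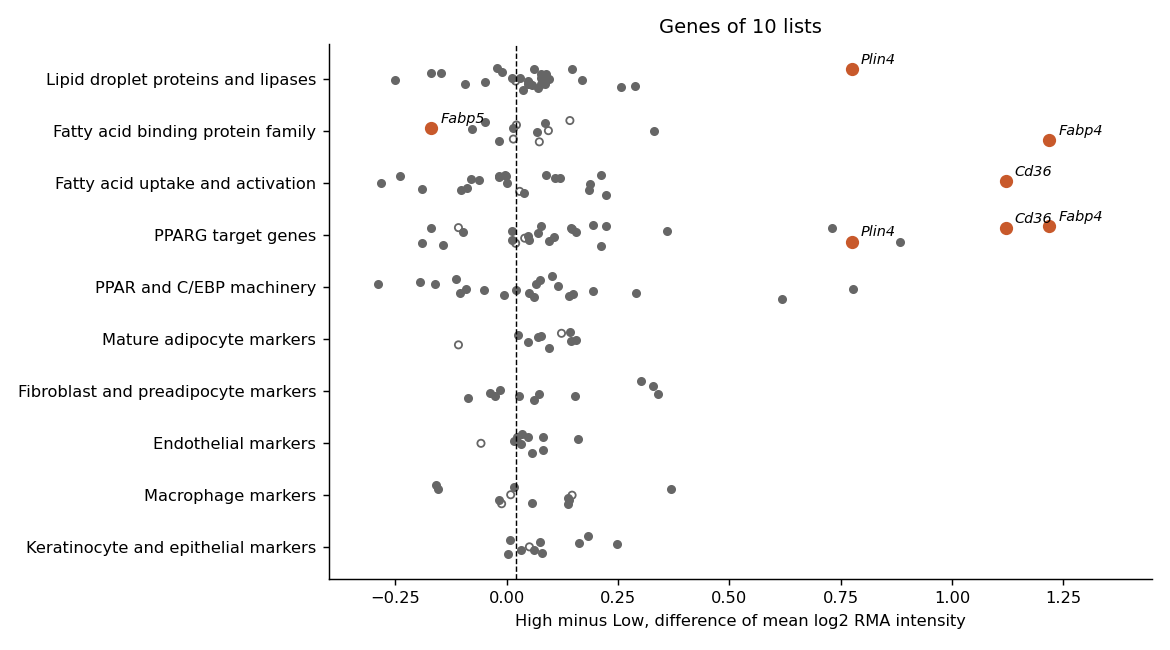
Difference of mean log2 RMA intensity, High minus Low, for the genes of 10 lists, 1 point per gene; filled points entered the fit, open points lay below the intensity limit, orange points are the 4 members and the dashed line is the median of all tested genes (0.021). Plin4, Fabp4 and Cd36 lie far to the right of most genes of their lists and Fabp5 lies on the left side of its family. These differences were known when the members were picked.

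Markers of the cell types in which these genes are also known were read on the same arrays. Mature adipocyte markers had differences from 0.02 to 0.16 over 8 tested genes, 0 passed in limma and 1, Aqp7, had an unadjusted limma p under 0.05. The mean signal of the 10 with a probe set ran from 7.11 to 7.21 in Low and from 7.11 to 7.42 in High lines, and Adipoq and Lep lay below the intensity limit. The mean over 10 endothelial markers ran from 7.13 to 7.24 in Low and from 7.14 to 7.38 in High lines, with Vwf (0.16) the 1 of 9 tested at an unadjusted limma p under 0.05. The mean over 12 macrophage markers ran from 7.12 to 7.21 and from 7.12 to 7.30, with Ptprc, Adgre1 and Itgam below the limit and Csf1r (-0.16) the 1 of 9 tested at that p. The mean over 10 keratinocyte and epithelial markers ran from 7.20 to 7.28 and from 7.20 to 7.54, with 0 of 9 at that p. For each of these lists 0 genes passed in limma. All tested adipocyte, endothelial and epithelial markers had positive differences, 8 of 8, 9 of 9 and 9 of 9, beside 58.0% of all tested genes. High replicate 4 had the highest mean for these 3 lists, at 7.42, 7.38 and 7.54, and the other High lines reached 7.28, 7.24 and 7.40. Without it 8 of 8, 4 of 9 and 6 of 9 were positive. Fibroblast and preadipocyte markers were bright, with a mean from 11.96 to 12.18 in Low and from 12.01 to 12.30 in High lines. Of 11 tested, 0 passed in limma and 2, Pdgfra (0.33) and Thy1 (0.34), were higher at an unadjusted limma p under 0.05, against 1 after the first centring and 0 without High replicate 4. The part of such cells or of early differentiation in the members' values was not tested.

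The genes beside the members along the chromosome were read because clones of a line can differ in gene copy number. Fabp4 and Fabp5 lie on chromosome 3 in a cluster with Pmp2, Fabp9 and Fabp12, other genes of the family. Between the carriers lie Gm9833, Pmp2 and Fabp9, which differed by 0.05, -0.05 and 0.07, and Fabp12 on the far side of Fabp4 differed by 0.09. Impa1 and Slc10a5, the next genes, differed by -0.19 and 0.09. On the far side of Fabp5, Pag1, Zfp704 and Zbtb10 differed by 0.05, 0.04 and -0.15. The 3 nearest genes on either side of Fabp4 thus lay between -0.19 and 0.09, beside 1.22 for Fabp4 itself. Of these 6 genes, 4 (Gm9833, Fabp9, Fabp12 and Slc10a5) were below the intensity limit, where differences are hard to see.

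Over the 19 genes around Fabp4 that are not members, the median difference was 0.03, and of 12 tested 0 passed in limma while 1 was higher and 2 were lower at an unadjusted limma p under 0.05. Around Fabp5 the median over 19 genes was 0.03, with 0 of 14 tested past the limma adjustment and 3 lower at an unadjusted limma p under 0.05. These 3 were Pkia (-0.69), Tpd52 and Impa1. Over all tested genes 3.16% were higher and 4.79% lower at that p. The windows overlap, and Tpd52 (-0.68) and Impa1 (-0.19) are in both. The identifier of the probe set used for Tpd52 lies far from those of the genes next to it. Whether that probe set reads sequence elsewhere was not tested.

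Plin4 lies on chromosome 17 beside Plin5. The nearest genes Chaf1a, Ubxn6 and Hdgfl2 differed by -0.02, 0.09 and 0.10 on one side and Plin5, Lrg1 and Sema6b by 0.05, 0.17 and 0.11 on the other. Over 20 neighbours the median was 0.09, 16 were positive beside 59.7% of all genes without the intensity filter, 0 passed in limma and 1, Mpnd, was higher at an unadjusted limma p under 0.05. Cd36 lies on chromosome 5 between Sema3c (0.31) and Gnat3 (0.04), with Hgf (-0.02) and Cacna2d1 (0.07) before and Gnai1 (-0.02) and Phtf2 (-0.26) after them. The median over its 20 neighbours was -0.004, with 0 of 14 tested past the limma adjustment and 1, Phtf2, lower at an unadjusted limma p under 0.05. The difference of each of Plin4, Fabp4 and Cd36 was larger than that of every one of its 20 neighbours. The members were picked with their differences known and the neighbours by position, so nothing is read from this comparison. Copy number was not tested.

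**Figure D4:**
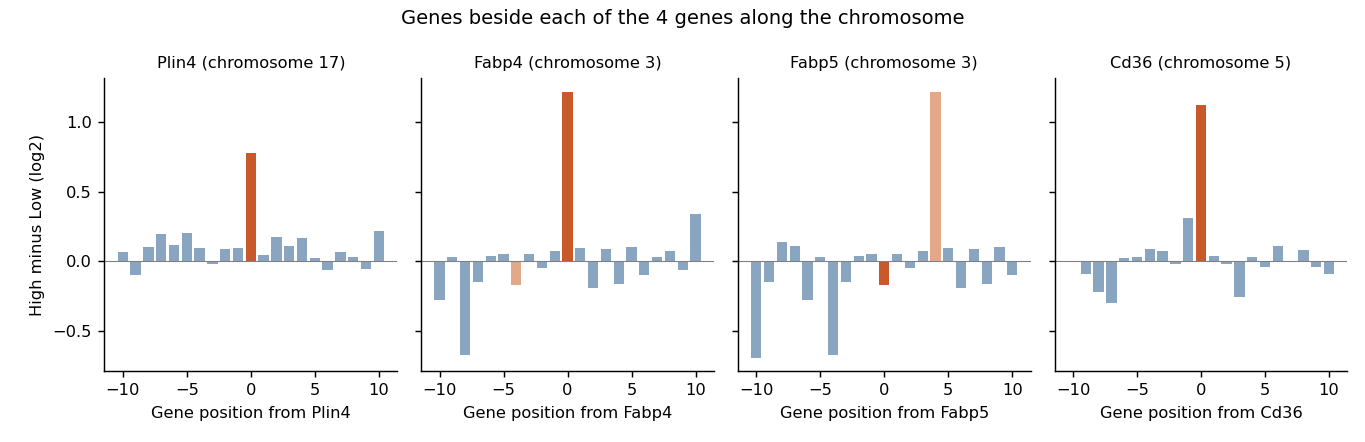
Difference of mean log2 RMA intensity, High minus Low, for each member (position 0, dark orange) and the 10 genes with a probe set on either side in RefSeq gene order; pale orange marks Fabp5 and Fabp4 in each other's windows. Plin4, Fabp4 and Cd36 exceed all their neighbours, with differences of 0.77, 1.22 and 1.12, which were known when the members were picked.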

How the data were processed

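Total RNA of 10 clonal lines was hybridised to whole-transcript arrays, 1 array per line. The deposited values are log2 intensities made by the authors with RMA, per the submitters' processing notes, which give no version. RMA makes the arrays' distributions alike, so these values cannot show a shift common to most transcripts. The array annotation listed 1 symbol for 21640 of 34760 probe sets, several for 1321, and did not list the other 11799. Gene order came from the RefSeq table of GRCm38.p6. The genome build behind the arrays is not given in the sources used here.

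Members, lists and tests were chosen with earlier results of these data known. limma 3.58.1 (lmFit, eBayes, R 4.3.3) was fitted to 16339 genes without covariates. Exact within-class permutation was run in Python 3.11.15 with numpy 2.4.6 and pandas 2.3.3, and plots used matplotlib 3.10.9. Both tests were tried on simulated data. Named genes were the members, Pparg and Angptl4, list genes past an adjusted p of 0.05 or otherwise up to 4 per list with the smallest p, the perilipins and adjoining Fabp genes, the 5 genes most like each member, and the 3 nearest on either side. Lines were separately grown clones, so the spread holds clonal and technical variation together, and the number of arrays limits precision.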

Additional observations from a re-analysis of the deposited data

Results flagged for a closer look

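The values of each class were searched for 1 line apart from the other 4. This covered the members, Pparg, Angptl4, the genes named from the pathway lists, the perilipins and the adjoining Fabp genes. The genes most like each member and the other chromosomal neighbours were not searched as such. Of 52 sets of 5 values, 2 had such a line, where about 2.6 arise by chance. Neither was in a member. A line was flagged when its gap to the next value was above 0.71 of the range of the 5 values. Fabp4 in High replicate 5, at 8.63 against 9.89 to 10.45 in the other High lines, fell little short of this. Slc27a5 in Low replicate 1, at 6.88, lay below the other Low lines at 6.94 to 6.96. Fabp12 in High replicate 4, at 6.81, lay above the other High lines at 6.26 to 6.42.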

How the results depend on the processing

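Each member kept the sign of its difference under repeated quantile normalization, both ways of centring, the mean of probe sets, a block for the first digit in the clone's name and each line left out. With a line left out the differences ran from 0.67 to 0.86 for Plin4, 1.06 to 1.51 for Fabp4, -0.22 to -0.11 for Fabp5 and 0.79 to 1.36 for Cd36. The block rests on the lines whose names start with 4 and gave 0.94, 1.59, -0.12 and 1.57. The number of genes past the limma threshold, 1, was 2 after centring on the median of all probe sets or of the tested genes (the latter chosen after seeing the data), 3 with array weights, 0 with the block, and 1 to 19 with a line left out. It was 19 without High replicate 5 and 2 without Low replicate 3 or without Low replicate 5. The number of pairs past the exact permutation threshold, 1, was 2 with the mean of probe sets and 0 to 1 with a line left out. The other probe set of Fabp5, and the list counts after the second centring or without High replicate 4, were also chosen after seeing the data. No paired analysis was possible because the labels carry no replicate numbers. The median differences of the neighbouring genes ran from 0.04 to 0.10 around Plin4, -0.02 to 0.04 around Fabp4, -0.04 to 0.04 around Fabp5 and -0.04 to 0.02 around Cd36 with a line left out. Arrays have no counting depth, and signal near background limits Cd36.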
